A study of Mus musculus with 15 samples.

Results

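The c-Jun N-terminal kinase (JNK) pathway was examined through 7 genes: the JNK genes Mapk8, Mapk9 and Mapk10, the upstream kinases Map2k4, Map2k7 and Map3k5, and the scaffold gene Mapk8ip1. A gene was measured where a probe set carried its symbol alone, and its brightest such probe set over all 15 arrays represented it. This gave 6 of the 7 genes among 19938 named genes; Map2k7 was not analysed here. The arrays compare gonadal white adipose tissue of 7 wild-type males with that of 8 males labelled Sfrp5 KO (Q27Stop), which carry a premature stop in Sfrp5. Both groups were labelled C57BL6/J, ate a high-fat diet for 8 weeks and were 12 weeks old. The allele is not restricted to a cell type in the labels, and each mouse contributed 1 array. The comparison asks whether loss of Sfrp5, a secreted protein that binds Wnt ligands, changes transcripts of the kinase arm proposed to act after Wnt5a.

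JNK is the last kinase of a relay. MAP kinase kinase kinases such as ASK1 (Map3k5) phosphorylate the MAP kinase kinases MKK4 (Map2k4) and MKK7 (Map2k7), and these phosphorylate JNK on a threonine and a tyrosine of its activation loop. Scaffolds such as JIP1 (Mapk8ip1) hold the kinases together, phosphatases of the Dusp family switch JNK off, and active JNK phosphorylates c-Jun and other transcription factors. In obese fat JNK is known for stress and inflammatory signalling and for phosphorylating the insulin receptor substrate Irs1. Noncanonical Wnt ligands such as Wnt5a can activate JNK through Ror receptors, Dishevelled and Rac1. The arrays measure transcripts, so the phosphorylation that sets kinase activity was not measured.

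The deposited values are log2 levels made by RMA, and array medians lay between 6.99 and 7.07. The tissue label was borne out by its adipocyte markers: Fabp4, a fatty acid carrier of adipocytes, read from 12.99 to 13.29 over the 15 arrays, and Adipoq, the gene of adiponectin, from 12.33 to 12.79. Wild-type arrays gave Sfrp5 a level of 7.92 ± 0.24 (SD, n = 7), and knockout arrays one of 6.69 ± 0.40 (SD, n = 8), with no overlap. The log2 difference of Sfrp5 was -1.23 (limma adjusted p = 0.0200). With 1 array left out its limma adjusted p ran from 0.00413 to 0.0670, and it missed the threshold of 0.05 in 7 of 15 fits. Some arrays held RNA of adjoining tissue. The mean of 14 measured epididymis and testis markers was 9.84 in knockout replicate 2, 7.41 in wild-type replicate 4 and 7.08 in knockout replicate 3, against 5.81 to 6.78 in the other arrays. The mean of 15 macrophage markers spanned 8.63 to 9.48 among wild-type arrays and 8.48 to 9.95 among knockout arrays, of which replicate 8 was highest. In bulk tissue, fewer cells of a type and less RNA per cell cannot be told apart. At limma's Benjamini-Hochberg adjusted p below 0.05, 12 of 35557 probe sets were called, or 0.0337%, 10 higher and 2 lower in the knockout; 9.97% had an unadjusted p below 0.05. Median centring of the arrays gave 5 higher and 2 lower. The count was 32 without wild-type replicate 6, 133 without knockout replicate 1, 4 without wild-type replicate 7 and from 2 to 6 without knockout replicates 3, 4, 6 or 7. It was 0 without wild-type replicates 2, 3, 4 or 5 or knockout replicates 2, 5 or 8, fits in which 3003 to 3521 probe sets had an unadjusted p below 0.05.

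None of the 6 measured JNK pathway genes passed the adjusted threshold (limma adjusted p from 0.723 to 0.950), where 0.0100% of named genes did. None had an unadjusted p below 0.05 either, where 6.69% of named genes did, 2.30% higher and 4.39% lower. In each of the 6 the values of the groups overlapped; 0.110% of named genes had groups that did not overlap. Of the 6 genes 2 had a higher mean and 4 a lower mean in the knockout, with a median log2 difference of -0.04, beside -0.01 over all named genes, of which 44.8% were higher. Fold estimates lay between 0.943 and 1.13.

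Mapk8 encodes JNK1, a widely expressed JNK and the form most studied in obesity; its gene lies on chromosome 14. Its log2 level in wild type had a lowest value of 8.53, a median of 8.64 and a highest value of 8.67. In the knockout the lowest value was 8.35, the median 8.54 and the highest 8.77. The knockout values enclosed the whole wild-type range: 3 of 8 knockout arrays lay within it, and knockout replicate 3 was the highest array of all. Subtracting the wild-type mean from the knockout mean gave a log2 difference of -0.08 (SE 0.06, 95% interval -0.21 to 0.04), a fold of 0.945 with an interval from 0.865 to 1.03. The limma adjusted p was 0.723, and the exact two-sided permutation p, from every way to divide the mice 7 to 8, was 0.147. Without knockout replicate 3 the difference was -0.12, with an unadjusted limma p of 0.0466 and an adjusted p of 0.490.

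Mapk9 encodes JNK2, the other widely expressed JNK, from chromosome 11. Its log2 level had a lowest value of 9.73, a median of 9.82 and a highest value of 10.05 in wild type. The knockout arrays had a lowest value of 9.55, a median of 9.79 and a highest value of 10.11. Below the wild-type mean lay 7 of 8 knockout arrays; replicate 6, the exception, was the highest array of either group. Mapk9 differed by -0.09 (SE 0.08, 95% interval -0.25 to 0.08; limma adjusted p = 0.791; exact permutation p = 0.275), a fold of 0.943. It ran from -0.13 without knockout replicate 6 to -0.05 without wild-type replicate 1 or knockout replicate 8.

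Mapk10 encodes JNK3, best known from brain, heart and testis, and lies on chromosome 5. Its log2 level had a lowest value of 5.44, a median of 5.68 and a highest value of 6.22 in wild type, and a lowest value of 5.09, a median of 5.88 and a highest value of 6.63 in the knockout. Knockout arrays held both the lowest values, in replicates 8 and 6, and the highest, in replicates 4 and 2, so the wild-type range lay inside that of the knockout. Mapk10 differed by 0.17 on the log2 scale (SE 0.22; limma adjusted p = 0.859; exact permutation p = 0.470), and its 95% interval from -0.29 to 0.64 covers folds from 0.817 to 1.56. This interval is the widest of the 6 genes. The difference was 0.07 without knockout replicate 4, 0.08 without knockout replicate 2 and 0.29 without knockout replicate 8. With both arrays that held the most epididymis RNA left out it was 0.13, and with the mean of both Mapk10 probe sets in place of the brighter one it was 0.06. A second Mapk10 probe set spanned 4.35 to 4.83 among wild-type arrays and 4.32 to 4.74 among knockout arrays, and differed by -0.04 (SE 0.09; limma adjusted p = 0.919). The 2 probe sets did not vary together over the arrays (r = 0.03, rho = 0.12, n = 15, after removing genotype means), and which of them follows JNK3 transcripts in fat was not tested. The brighter one, with a mean of 5.84, is itself dim: it lay under 6.24, the 33rd percentile of probe set means, and was removed when dim probe sets were left out.

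**Figure D1:**
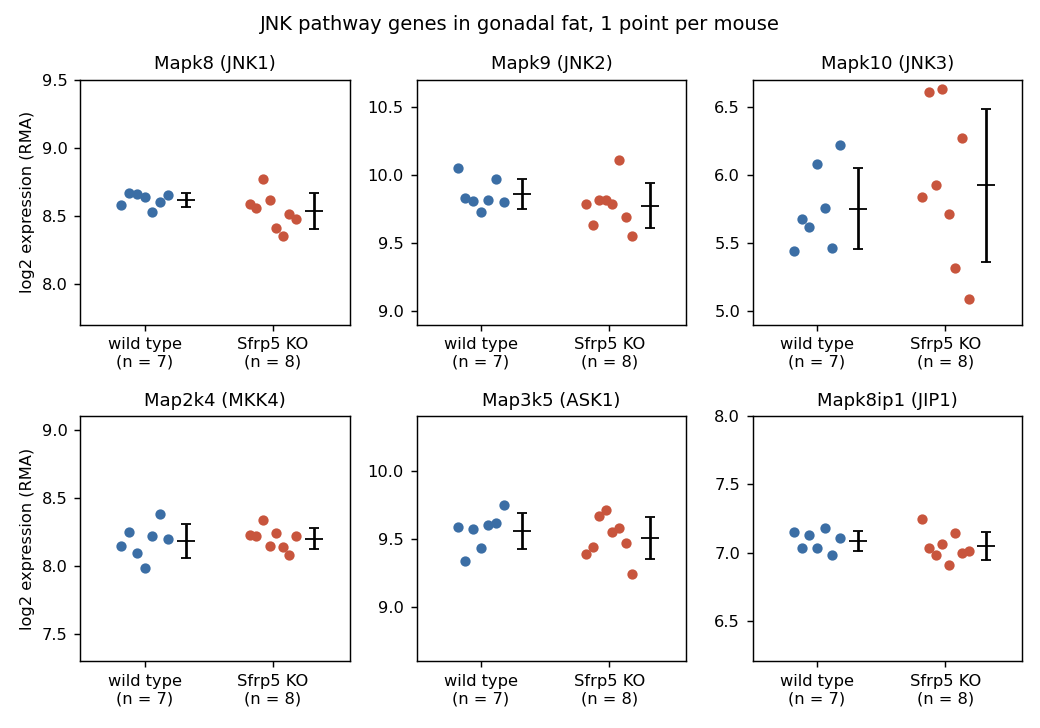
Log2 expression (RMA, vertical axis) of the 6 measured JNK pathway genes in 7 wild-type (blue) and 8 Sfrp5 knockout mice (red), 1 point per mouse, with black bars for the mean and SD; all panels span the same number of log2 units. The groups overlap in every panel, and Mapk10 has the widest spread, from 5.09 to 6.63.

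Map2k4 encodes MKK4, a kinase that phosphorylates JNK and also p38, and lies on chromosome 11. Its log2 level had a lowest value of 7.99, a median of 8.20 and a highest value of 8.38 in wild type, and 8.08, 8.22 and 8.34 in the knockout. All 8 knockout arrays lay within the wild-type range. Map2k4 differed by 0.02 (SE 0.06, 95% interval -0.11 to 0.14; limma adjusted p = 0.950; exact permutation p = 0.729), or a fold of 1.01 with an interval from 0.929 to 1.1. Its sign was not settled: the difference was -0.01 when wild-type replicate 4 was left out and -0.00 when knockout replicate 3 was, and reached 0.05 when wild-type replicate 6 was.

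Map3k5 encodes ASK1, the kinase that thioredoxin holds inactive until oxidative stress or tumour necrosis factor releases it; it lies on chromosome 10. The lowest, median and highest log2 levels were 9.34, 9.59 and 9.75 in wild type and 9.24, 9.51 and 9.71 in the knockout. Of the 8 knockout arrays 7 lay within the wild-type range, and replicate 8 lay below it. Map3k5 differed by -0.05 (SE 0.08, 95% interval -0.21 to 0.11; limma adjusted p = 0.890; exact permutation p = 0.521), a fold of 0.967. Without knockout replicate 8, the array with the highest macrophage markers, it was -0.01; leaving out wild-type replicate 7 gave -0.02, leaving out knockout replicate 4 gave -0.08, and leaving out wild-type replicate 2 gave -0.09.

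Mapk8ip1 encodes JIP1, a scaffold that binds JNK, MKK7 and mixed-lineage kinases, and lies on chromosome 2. Its log2 level had a lowest value of 6.98, a median of 7.11 and a highest value of 7.18 in wild type, against 6.91, 7.02 and 7.25 in the knockout. Of the 8 knockout arrays 6 lay within the wild-type range, with replicate 1 above it and replicate 5 below it. Mapk8ip1 differed by -0.04 (SE 0.06, 95% interval -0.16 to 0.08; limma adjusted p = 0.881; exact permutation p = 0.426), a fold of 0.973. It was -0.07 without knockout replicate 1 and -0.02 without knockout replicate 5 or wild-type replicate 5.

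The genes differed in how much they varied between mice of one genotype. The SD within genotypes was 0.09 for Mapk8ip1, 0.10 for Mapk8 and Map2k4, 0.14 for Mapk9 and 0.15 for Map3k5, all under the median SD of 0.16 over named genes. For Mapk10 it was 0.46, higher than in 96.4% of named genes, and its arrays spanned a 2.91-fold range; the other 5 genes spanned 1.27 to 1.48-fold. The genes did not vary as a group. Of 15 pairs of genes, compared over 15 arrays after removing genotype means, none passed a permutation test within genotypes after Benjamini-Hochberg adjustment. The closest was Mapk9 with Map3k5, with Pearson r = 0.50 (permutation p = 0.0722, adjusted p = 0.707) and Spearman rho = 0.57 (permutation p = 0.0363, adjusted p = 0.544). For that pair r was 0.63 without the 2 arrays farthest from the median of Mapk9, knockout replicate 6 and wild-type replicate 1.

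The brighter Mapk10 probe set was lower in arrays with more adipocyte marker signal. Its r with the mean level of 14 adipocyte markers was -0.83 (permutation p = 6.00e-05) and its rho was -0.86 (permutation p = 8.00e-05). The adjusted p-values over the 54 pairs of a JNK pathway gene and a marker list were 0.00324 and 0.00432. Within wild type r was -0.96 and within the knockout -0.85, and over all arrays it was -0.79 without wild-type replicate 7 and knockout replicate 2, the arrays farthest from the median of the marker mean. The 5 arrays with the highest Mapk10, knockout replicates 4, 2 and 7 and wild-type replicates 7 and 4, had the 5 lowest adipocyte means, between 11.24 and 11.42. The other 10 arrays had adipocyte means from 11.44 to 11.61. Knockout replicate 2 and wild-type replicate 4 were also the arrays richest in epididymis markers. Without these 2 arrays the r of Mapk10 with adipocyte markers was -0.78 (permutation adjusted p = 0.0362). With epididymis and testis markers Mapk10 had r = 0.42 (permutation adjusted p = 0.687), and r = -0.09 without the same 2 arrays. By genotype the adipocyte means spanned 11.24 to 11.58 (wild type) and 11.33 to 11.61 (knockout). Mapk10 also had r = 0.62 with 12 mesothelial markers and r = -0.63 with 10 endothelial markers, each with a permutation adjusted p of 0.105. All these values are of the brighter Mapk10 probe set, itself dim. The second one did not vary with it (r = 0.03, n = 15), and its relation to the marker lists was not tested.

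A measure taken over the whole array moved with Mapk10 as well. The lower quartile of each array ran from 5.744 to 5.870, and its r with Mapk10 was 0.67 (permutation p = 0.00418, adjusted p = 0.0251 over 6 genes), with rho = 0.59 (permutation p = 0.0246, adjusted p = 0.127). Map2k4 went the other way, with r = -0.66 (permutation p = 0.0124, adjusted p = 0.0372) and rho = -0.56 (permutation p = 0.0422, adjusted p = 0.127). For Mapk10 r was 0.68 without wild-type replicates 6 and 4, the arrays farthest from the median of this measure, whereas for Map2k4 it was -0.35, so the Map2k4 relation rests on those arrays. The part of the lower quartile in the Mapk10 values, and in their relation to adipocyte markers, was not tested. Whether the lower quartile follows array processing or tissue content was not tested either. It was lowest in knockout replicate 8, with the highest macrophage markers, and highest in wild-type replicate 4, rich in epididymis markers. With the lower quartile as a covariate, a choice made after seeing the data, the genotype difference of Mapk10 was 0.30 (limma adjusted p = 0.525).

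**Figure D2:**
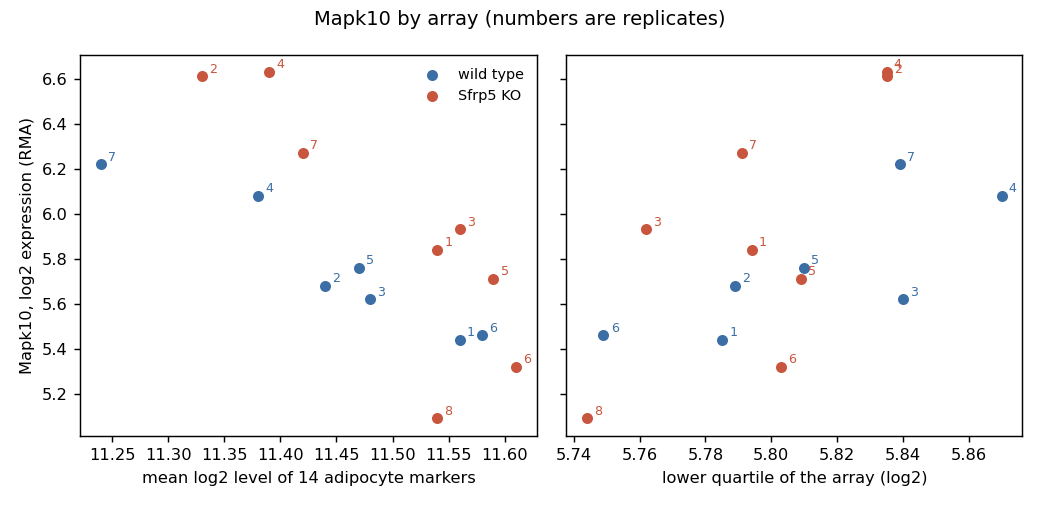
Log2 expression of the brighter Mapk10 probe set (vertical axis) in each array against the mean log2 level of 14 adipocyte markers (left). The right panel has the lower quartile of the array in log2 units on its horizontal axis. Wild type is in blue and knockout in red, with the replicate number beside each point. Mapk10 falls from left to right in the first panel (r = -0.83) in both genotypes and rises in the second (r = 0.67).

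Among the 6 measured JNK pathway genes Mapk10 had by far the most company. Its SD within genotypes, 0.46, was also by far the largest of them and above that of 96.4% of named genes. How much company other named genes of like spread have was not counted. Over the 15 arrays 488 of 19937 other named genes had r above 0.8 with it, and 223 had r below -0.8. Above 0.8 there were 63 for Mapk9, 57 for Map3k5, 11 for Mapk8ip1, 8 for Map2k4 and 3 for Mapk8. Dim genes, those under the 33rd percentile, made up 21.1% of the 488 and 3.14% of the 223, against 26.5% of named genes. The 3 genes most like Mapk10 were Agbl2, a carboxypeptidase that trims tubulin (r = 0.96), Synm, an intermediate filament protein (r = 0.95), and Ano9 (r = 0.94). Like Mapk10 they did not pass between genotypes, with log2 differences of 0.08, -0.03 and 0.12. These are the highest of many correlations and are given as a description.

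Mapk10 has 2 promoter windows in RefSeq (GRCm38.p6), each running from 250 bases before a transcript start to 50 after it. They were searched on both strands, with those of the other genes, for the AP-1 site TGANTCA, the cyclic AMP response element TGACGTCA, which JNK substrates of the ATF family can bind, and the variant TGACATCA. Each of the 3 sequences printed below and further on held 1 match, so no matches overlap in them. The 250 bases before the first Mapk10 start are shown because they hold a full cyclic AMP response element, at position -29 from the start and in capitals, as 1.79% of all 32851 windows do (GRCm38.p6, chr5:103211335-103211584, minus strand).
Mapk10: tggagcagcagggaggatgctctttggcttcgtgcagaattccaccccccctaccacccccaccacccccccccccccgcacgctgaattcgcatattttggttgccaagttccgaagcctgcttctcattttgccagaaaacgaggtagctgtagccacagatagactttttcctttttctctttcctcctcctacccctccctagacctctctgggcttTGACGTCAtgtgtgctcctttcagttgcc
One of the 2 Map2k7 windows held an AP-1 site, at position -92, as 7.81% of all windows do. The second Mapk10 window and the windows of Mapk8, Mapk9, Map2k4 and Map3k5 held none of the 3 motifs. A match is a run of letters and not evidence of binding.

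Map3k5 varied with macrophage markers in a way that depended on which arrays were kept. Its r with the mean of 15 macrophage markers was -0.65 (permutation p = 0.0126, adjusted p = 0.170 over the 54 pairs), with rho = -0.43 (permutation p = 0.131, adjusted p = 0.667). Without knockout replicate 8 and wild-type replicate 2, the arrays with the most macrophage signal, r was -0.14, so the relation rests on these. Without wild-type replicate 4 and knockout replicate 2 it was -0.86 (permutation adjusted p = 0.0397). Mapk9 had r = 0.56 with the adipocyte mean (permutation p = 0.0320, adjusted p = 0.308) and rho = 0.69 (permutation p = 0.00683, adjusted p = 0.123). Markers of nerve and Schwann cells, in which JNK3 and JIP1 are well known, had r = -0.42 with Mapk10 and r = 0.07 with Mapk8ip1. Their list mean lay between 6.20 and 6.47 in all arrays. Map3k5 had r = -0.58 with these markers (permutation p = 0.0343, adjusted p = 0.308) and rho = -0.61. Map2k4 had r = 0.57 with endothelial markers (permutation p = 0.0484, adjusted p = 0.373). In total 1 of the 54 pairs passed by Pearson r, that of Mapk10 with adipocyte markers.

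**Figure D3:**
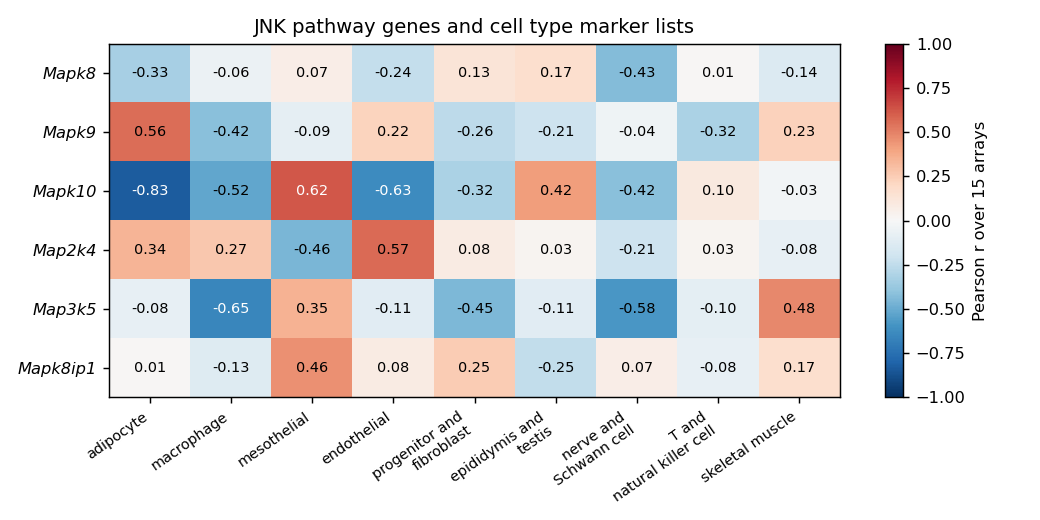
Pearson r over 15 arrays, after removing genotype means, between each JNK pathway gene (rows) and the mean level of each cell type marker list (columns), on a colour scale from -1 (blue) to 1 (red). The strongest cell is Mapk10 with adipocyte markers at -0.83; no other pair passed after adjustment over the 54.

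The other genes of the pathway are described from lists in order of their role. Over the 9 lists 117 of 124 genes were measured, of which none passed limma's adjusted threshold and 3 had an unadjusted p below 0.05, each higher in the knockout; 2.30% of named genes were higher at that p. Those 3 were Jun, Jund and Dusp10. The number of list genes at that p was 7 without wild-type replicate 4, 1 without knockout replicate 1, 1 without knockout replicate 6 and 0 without knockout replicate 7. Probe sets at that p numbered 3521, 4020, 3542 and 2985 in these fits, in the same order, against 3544 in the main fit. Of Jun, Jund and Dusp10, none was among those called without wild-type replicates 4 or 5 or knockout replicates 1, 7 or 8, or after median centring, and Jund alone was after quantile normalization. None was called either with blocking on the replicate number or with the lower quartile as covariate. Nor was any without both wild-type replicate 4 and knockout replicate 2, without both knockout replicates 7 and 8, or with these as the only knockout arrays.

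On the route from Wnt5a to JNK, 10 of 16 ligand, receptor and relay genes had a higher mean in the knockout (median log2 difference 0.01), but 7 of 16 did after quantile normalization. Wnt5a, the ligand that Sfrp5 is known to bind, had a mean of 7.30 ± 0.08 over wild-type mice (SD, n = 7) and of 7.32 ± 0.10 over knockout mice (SD, n = 8). Its log2 difference was 0.02 (SE 0.06, 95% interval -0.10 to 0.14; limma adjusted p = 0.949), which covers folds from 0.933 to 1.1. Ror1, a receptor for Wnt5a, differed by 0.15 (SE 0.09; limma adjusted p = 0.617), its relative Wnt5b by 0.15 (SE 0.09) and Vangl2, a planar polarity protein, by 0.11 (SE 0.09), or 0.05 without wild-type replicate 3. None of the 16 had an unadjusted p below 0.05.

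Of 16 other MAP kinase kinase kinases 9 were higher (median 0.02). Map3k20, or ZAK, which senses stalled ribosomes, differed by -0.16 (SE 0.08; limma adjusted p = 0.549), Map3k3 by -0.08 (SE 0.06) and Taok2 by -0.12 (SE 0.09), or -0.07 without wild-type replicate 1 and -0.19 without wild-type replicate 4. Among 15 partners of ASK1 and upstream adaptors 6 were higher (median -0.04). Txn1, the thioredoxin that restrains ASK1, differed by 0.09 (SE 0.06; limma adjusted p = 0.684). All 8 knockout values exceeded the wild-type mean, and all 8 fell within the wild-type range; the difference was 0.06 without wild-type replicate 5. Traf5, an adaptor of tumour necrosis factor receptors, differed by -0.14 (SE 0.10), or -0.09 without knockout replicate 2. Tnik, a kinase that binds Traf2, differed by -0.11 (SE 0.08), or -0.06 without wild-type replicate 4. Of 12 other scaffolds and cofactors 4 were higher (median -0.04). Spag9, or JIP4, differed by -0.12 (SE 0.06; limma adjusted p = 0.555), Gadd45a, a stress-induced activator of MAP3K4, by -0.12 (SE 0.08), and Sh3rf1, or POSH, by -0.06 (SE 0.06), with -0.04 without knockout replicate 3 or wild-type replicate 5. For Spag9 all 8 knockout values were under the wild-type mean, and 6 of them lay within the wild-type range.

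Phosphatases and other inhibitors of JNK were higher for 10 of 15 genes (median 0.04). Dusp10 encodes MKP-5, a phosphatase that prefers JNK and p38. Its log2 level had a lowest value of 9.53, a median of 9.91 and a highest value of 10.34 in wild type, and 9.85, 10.15 and 10.62 in the knockout. The groups overlapped, and 6 of 8 knockout arrays lay above the wild-type mean. The log2 difference of 0.30 (SE 0.14) had an unadjusted limma p of 0.0479 and an adjusted p of 0.497, with an exact permutation p of 0.0660. Dusp9 differed by -0.17 (SE 0.10) and Ppm1a, a phosphatase of stress kinases, by -0.12 (SE 0.07).

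Transcription factors downstream of JNK were higher for 11 of 15 genes (median 0.06). Jun encodes c-Jun, the substrate that gave JNK its name. Its wild-type values spanned 8.91 to 9.11, with a median of 9.09, and its knockout values 8.91 to 9.42, with a median of 9.19. Of the 8 knockout arrays 7 lay above the wild-type mean and 2 lay within the wild-type range. Jun differed by 0.15 on the log2 scale (SE 0.07; limma p = 0.0458, adjusted p = 0.490; exact permutation p = 0.0390), a fold of 1.11. Jund, a relative of c-Jun, had wild-type values of 7.37 to 7.75, with a median of 7.63, and knockout values of 7.65 to 7.88, with a median of 7.77. All 8 knockout arrays lay above the wild-type mean, and 3 of them lay within the wild-type range. Jund differed by 0.14 (SE 0.06; limma p = 0.0350, adjusted p = 0.457; exact permutation p = 0.0171). Elk1 differed by 0.11 (SE 0.07), and by 0.06 without knockout replicate 8. Of 13 other JNK substrates 6 were higher (median -0.01), with Bcl2 at -0.13 (SE 0.08), the adaptor Shc1 at 0.15 (SE 0.11) and the ubiquitin ligase Itch at -0.07 (SE 0.06). Shc1 was at 0.09 without knockout replicate 8 or wild-type replicate 7, and Itch at -0.04 without wild-type replicate 2 and -0.11 without wild-type replicate 4.

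The sequences before the starts of Jun and Dusp10 are shown, a choice made after their values were seen, because both hold the motif TGACATCA, in capitals. In Jun this is the site through which c-Jun and ATF2 are known to act on the gene itself. The motif lies at position -45 in Jun (GRCm38.p6, chr4:95052223-95052472, minus strand) and at position -157 in Dusp10 (chr1:184034131-184034380, plus strand), and 3.62% of all windows hold it. Of 134 windows of the pathway genes 3 did.
Jun: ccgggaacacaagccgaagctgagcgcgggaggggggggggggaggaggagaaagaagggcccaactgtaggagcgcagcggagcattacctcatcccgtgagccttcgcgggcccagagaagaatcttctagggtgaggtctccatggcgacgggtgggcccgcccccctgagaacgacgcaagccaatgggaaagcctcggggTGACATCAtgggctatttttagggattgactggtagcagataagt
Dusp10: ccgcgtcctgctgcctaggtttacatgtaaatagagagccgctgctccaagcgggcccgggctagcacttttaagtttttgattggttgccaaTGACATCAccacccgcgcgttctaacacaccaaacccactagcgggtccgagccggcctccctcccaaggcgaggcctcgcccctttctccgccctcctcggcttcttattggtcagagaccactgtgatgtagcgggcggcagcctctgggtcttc
The Jund window held none of the 3 motifs.

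**Figure D4:**
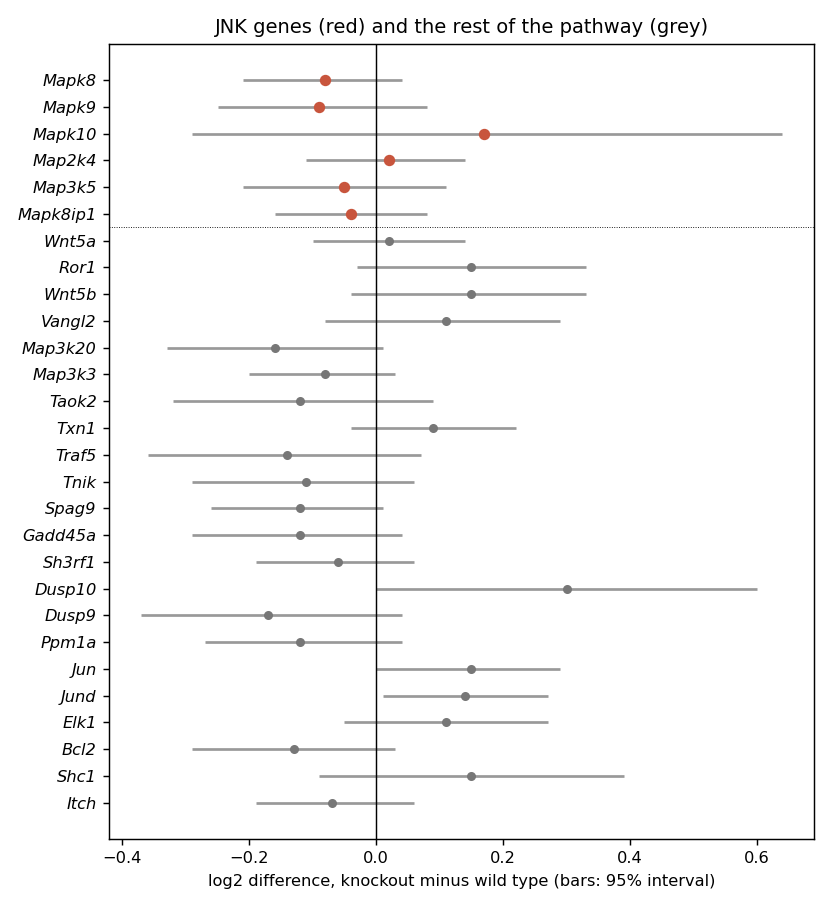
Log2 difference of knockout from wild type (horizontal axis) with its 95% interval for the 6 JNK pathway genes (red) and named genes of the pathway lists (grey). The intervals of all 6 JNK pathway genes include 0, and Mapk10 has the widest, from -0.29 to 0.64.

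Next to JNK run the p38 and ERK arms of MAP kinase signalling. Of 8 measured genes of the p38 arm 3 were higher (median -0.01). Mapk14, the main p38 kinase, differed by -0.10 (SE 0.06; limma adjusted p = 0.585), Mapk13 by 0.13 (SE 0.08) and Mapk11 by -0.07 (SE 0.05). For Mapk14, too, all 8 knockout values were under the mean of wild type, and 5 of them lay within the wild-type range. Mapk14, like Spag9, was named for its low genotype p. Of 7 measured genes of the ERK arm 3 were higher (median -0.03). Map2k2 differed by 0.12 (SE 0.07; limma adjusted p = 0.572), and by 0.08 without knockout replicate 8. Map2k1 differed by -0.07 (SE 0.06) and Map2k5 by 0.09 (SE 0.09), with 0.15 without knockout replicate 1 and 0.05 without wild-type replicate 4.

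Beside these counts, mesothelial markers were higher in the knockout for 12 of 12 genes, with list means from 7.30 to 8.44 among wild-type and 7.83 to 8.61 among knockout arrays. Endothelial markers were lower for 10 of 10, with list means from 8.81 to 9.40 and from 8.83 to 9.29. Adipocyte markers were higher for 11 of 14 and, after quantile normalization, for 6 of 14. Macrophage markers were higher for 13 of 15 and, with the lower quartile as covariate, for 5 of 15. Epididymis and testis markers were higher for 12 of 14, and progenitor and skeletal muscle markers each for 7 of 9. Nerve and T cell markers were each higher for 5 of 10, and 44.8% of named genes were. At an unadjusted limma p below 0.05 were 4 of 12 mesothelial and 0 of 10 endothelial genes, and no marker passed the adjusted threshold. The part of these cell types in the pathway differences was not tested.

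The genes whose levels followed the other JNK pathway genes most closely over the 15 arrays were different for each of them. For Mapk8 they were Lsm8, of the spliceosome (r = 0.84), Slc25a2 (0.82) and Ttc39d (0.80). Mapk9 was followed by Dnajc28 (r = 0.90), the membrane protein gene Pgrmc2 (0.89) and Nit2, an amidase (0.89). For Map2k4 they were Ammecr1l (r = 0.93), the helicase-like factor Hltf (0.86) and Mitf, a transcription factor (0.83). Map3k5 was followed by the sialyltransferase gene St3gal6 (r = 0.92), Cdc40, a splicing factor (0.90), and Osbpl9, an oxysterol-binding protein (0.90). For Mapk8ip1 they were Zfp821 (r = 0.91), Mcpt8, a mast cell and basophil protease (0.87), and Myog, a muscle transcription factor (0.86). None of these 15 genes passed between genotypes. They too are the highest of many correlations and are given as a description. Of genes with r above 0.8, dim ones made up 66.7% for Mapk8, 54.5% for Mapk8ip1 and 37.5% for Map2k4. The shares were 1.75% for Map3k5 and 1.59% for Mapk9, against 26.5% of named genes. In the alternatives tried, the lowest r was 0.66, for Slc25a2 with Mapk8 after quantile normalization. Lsm8 had r = 0.46 with Mapk8 within wild type and 0.91 within the knockout.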

How the data were processed

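Total RNA of gonadal fat from 15 mice was amplified, labelled with biotin and put on 1 Affymetrix array per mouse, per the labels' protocols. The authors deposited log2 expression values for 35557 probe sets, produced with RMA according to their notes; per the submitters' processing notes, Affymetrix Expression Console 1.1.2800.19935, affy 1.18 and limma were used too, in no stated role. The build, the version of the probe annotation and whether the arrays were normalized jointly: not given in the sources used here. RMA makes array distributions alike, which takes out any change shared by most genes. Scanner files were not used, so detection per probe is unknown. Precision is limited by how many arrays there are.

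Gene names came from the platform annotation: 21789 carried 1 symbol, 1621 several and 12147 none. Of the 21789 gene identifiers 21698 matched RefSeq's GRCm38.p6 gene table. Genotypes were compared on all probe sets in a two-sided test by limma 3.58.1 (lmFit, then eBayes; R 4.3.3), with neither covariate nor filter, with Benjamini-Hochberg adjustment over all probe sets; intervals are 95% from the moderated fit. Correlations used deviations from the genotype means and 100000 permutations within genotypes (two-sided). On simulated data with 50 probe sets per shift, the fit recovered 22% at a log2 shift of 0.3 and 62% at 0.5. It recovered 88% at 1.0 and 94% at 1.5, with 0 false calls. The simulated noise was normal and independent between probe sets, whereas genes on these arrays varied together, so these rates may not carry over.

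The genes named are the 7 JNK pathway genes, Sfrp5, Wnt5a and Jun, the 3 of lowest p in each pathway list, any list gene past the threshold, and for each JNK pathway gene the 3 named genes of highest r, leaving out predicted, olfactory, vomeronasal and microRNA genes. Members and lists were chosen with earlier results of these data known. The alternatives were quantile normalization, median centring, a filter on dim probe sets, another variance model, array weights, averaging the probe sets of each gene, adjustment over named genes alone, blocking on the replicate number and leaving arrays out; the lower quartile covariate was added after seeing the data. In the array descriptions a first number runs through wild type and then knockout, so it and genotype cannot be told apart. A second, unexplained number places knockout replicates 7 and 8 among the wild-type arrays and the other knockout arrays before them, so these 2 were left out, or kept as the only knockout arrays, as alternatives. Python 3.11.15 with matplotlib 3.10.9 drew the figures.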

Additional observations from a re-analysis of the deposited data

Results flagged for a closer look

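Within each genotype, the gap between an extreme array and its neighbour was divided by the range and set against Dixon's 95% critical value. None of the 6 JNK pathway genes passed it; knockout replicate 6 for Mapk9 came nearest, at 0.522, close to the critical value. Among the 28 other named pathway genes 8 gaps in 56 groups passed it. For independent groups chance gives about 1 in 20. These groups share the same 15 arrays, and most of the genes were chosen by their genotype p. An excess over chance was therefore not tested. In 4 of the 8 gaps the array was knockout replicate 8. It read 8.97 for Gadd45a against 8.47 to 8.69 in the other knockout arrays, 9.18 for Elk1 against 8.67 to 8.86, 8.14 for Map2k2 against 7.73 to 7.86, and 9.88 for Itch against 9.99 to 10.06. Wild-type replicate 2 read 7.0 for Ror1, where the other wild-type arrays read at least 7.22, and wild-type replicate 3 read 6.04 for Vangl2, where the others read at least 6.35. For Map2k5, wild-type replicate 4 read 8.27 below others of 8.49 to 8.60, and knockout replicate 1 read 8.17 below others of 8.51 to 8.80.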

How the results depend on the processing

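No JNK pathway gene passed limma's adjusted threshold in any of 27 alternative fits (lowest adjusted p 0.490); Mapk10 was not in the fit without dim probe sets. With 1 array left out the log2 difference ran from -0.12 to -0.06 for Mapk8, -0.13 to -0.05 for Mapk9, 0.07 to 0.29 for Mapk10, -0.01 to 0.05 for Map2k4, -0.09 to -0.01 for Map3k5, -0.07 to -0.02 for Mapk8ip1, -1.29 to -1.13 for Sfrp5 and -0.01 to 0.04 for Wnt5a, while 0 to 1 of the 6 genes and 0 to 7 genes of the pathway lists had an unadjusted p below 0.05 and 0 to 133 probe sets passed. The count of 12 probe sets was 6 with quantile normalization, 7 with median centring, 26 without dim probe sets, 48 with an intensity trend and robust prior, 25 with array weights and 1 over named genes alone. It was 5 with the lower quartile as covariate, 2 without knockout replicates 7 and 8, and 0 in limma without wild-type replicate 4 and knockout replicate 2 (2963 at an unadjusted p below 0.05) or with knockout replicates 7 and 8 as the only knockout arrays (3392). Pathway list genes at an unadjusted p below 0.05 numbered 5 with quantile normalization, with array weights and when both epididymis-rich arrays (wild-type 4, knockout 2) were left out, 0 with median centring, 10 with the lower quartile as covariate and 9 with knockout replicates 7 and 8 as the only knockout arrays. That last setting, which has the fewest arrays, reversed Mapk10 (-0.07), Map2k4 (-0.04), Taok2 (0.03), Traf5 (0.10), Gadd45a (0.04), Dusp9 (0.03), Mapk11 (0.00) and Wnt5a (-0.02), gave Sfrp5 -0.93 (adjusted p = 0.316), and put 1 of the 6 genes, Mapk9, at an unadjusted p of 0.039. Map2k4 was -0.00 with array weights, -0.02 without wild-type replicate 4 and knockout replicate 2, where Sfrp5 was -1.17 (adjusted p = 0.119), and -0.01 with the lower quartile as covariate; Map3k5 was 0.00 without knockout replicates 7 and 8. The cause of these changes was not tested. Of the 54 pairs with marker lists 2 passed without wild-type replicate 4 and knockout replicate 2, against 1 of 54 otherwise.

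The labels do not say whether replicate numbers pair the mice. The correlation of deviations between same-numbered arrays ran from -0.117 to 0.248, which cannot settle it, as paired mice need not have like profiles. With the replicate block limma called 0 probe sets (3098 at an unadjusted p below 0.05), and Sfrp5 was -1.28 (adjusted p = 0.30). In that fit 1 of the 6 genes, Mapk10 at 0.29, had an unadjusted p of 0.0475 (adjusted p = 0.569). Knockout replicate 8 has no wild-type array of its number, so it adds nothing to the genotype difference under the block. The differences thus equal those without knockout replicate 8, which were also -1.28 for Sfrp5 and 0.29 for Mapk10. As the labels give no detection or signal over background, what dim probe sets such as those of Mapk10 can resolve is not known.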
